A study of Mus musculus with 696 samples.

Results

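The genes described here encode the components of the desmosome in mouse epidermis: the desmocollins Dsc1, Dsc2 and Dsc3, the desmogleins Dsg1a and Dsg3, the plaque proteins Dsp, Jup and Pkp1, and the membrane protein Perp. The 9 genes were chosen by name as components of the junction, with earlier results of these data known, and all 9 were among the 15652 genes of the count table. They were followed in 696 single keratinocytes sorted from tail skin at 4 time points, with 2 sorting plates at each. The mice were of a mixed CBA and C57BL/6 strain and carried Lrig1-EGFP-ires-CreERT2 with Rosa26-fl/STOP/fl-tdTomato. A single topical dose of hydroxytamoxifen on the tail before wounding marked cells that expressed Lrig1, a stem cell gene of the upper hair follicle, and tdTomato then marked their progeny. Each of the 4 groups carried these alleles and this label, and the study used female mice for this experiment, labelled in early adulthood. Labelling came a week before the first wound, so mice at 8w and 9w were older and longer labelled than at 0w. None of the 4 groups was unwounded at that age, so age, time since labelling and wounding cannot be told apart there. At 0w the skin was unwounded, 1w was a week after a first punch wound, 8w was the re-established homeostasis after that wound, and 9w was a week after a second wound. The cells came from a zone that took in the wound bed and hair follicles farther from it, after overnight trypsin. They are therefore tdTomato-positive cells of Lrig1 origin from a mixture of positions, not whole epidermis.

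Desmosomes join neighbouring keratinocytes and anchor the keratin filaments of one cell to those of the next. Desmocollins and desmogleins are cadherins that bind across the gap between cells, Jup (plakoglobin) and Pkp1 (plakophilin) bind their tails inside the cell, and Dsp (desmoplakin) ties that plaque to keratin. In epidermis, Dsc3 and Dsg3 are known from the lower layers, whereas Dsc1 and Dsg1 increase in the upper, differentiated layers, and Dsc2 is the desmocollin of many simple epithelia and the heart. Perp is a tetraspan membrane protein needed for desmosome assembly in stratified epithelia. In GRCm38 with GENCODE M21, the desmocollin and desmoglein genes lie in a single cluster on chromosome 18: Dsc3 at 19960930 to 20002351, Dsc2 at 20030633 to 20059554 and Dsc1 at 20084184 to 20114871 on the minus strand, and Dsg1a at 20310811 to 20343350 and Dsg3 at 20510274 to 20547459 on the plus strand. Dsp is on chromosome 13 at 38151294 to 38198577, Jup on chromosome 11 at 100368958 to 100397763, Pkp1 on chromosome 1 at 135871395 to 135919207 and Perp on chromosome 10 at 18845020 to 18857073.

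The plates held 79 to 91 cells and 12293182 to 19760820 counts, with plate medians of 64980 to 256588 counts per cell. The median mitochondrial share was 22.7% and 30.7% on the 0w plates, 17.9% and 23.9% at 1w, 18.2% and 22.1% at 8w, and 14.3% and 13.0% at 9w. Counts were summed over the cells of a plate, so that a plate is the unit of replication, and given as CPM, the gene's share of the plate's counts expressed per 1e6 after trimmed-mean adjustment of the totals. The summed level of 8 suprabasal keratinocyte markers, such as Krt10 and Krt1, was 3611 and 3883 CPM at 0w, 39022 and 45395 at 1w, 6191 and 7751 at 8w, and 22188 and 38790 at 9w. The sebaceous gland list, of which 9 of 10 genes were in the table, was highest on replicate 2 of 0w (7971 CPM) and lowest on replicate 1 of 1w (479 CPM). Of the other cell types, the T cell list (2 of 5 genes in the table) stayed at or below 1.02 CPM and the fibroblast list (5 of 6) at or below 29.5 CPM on every plate, and the myeloid list reached 72.6 CPM on replicate 2 of 9w. In the endothelial list (2 of 4), which spanned 94.5 to 1812 CPM, the signal was that of Pecam1, and Kdr was at 0 on 6 of 8 plates. The labels give each time point its own plate names, so the sorting plate and the time point cannot be told apart. In summed plates, a larger share of cells of one type and more RNA per cell also cannot be told apart.

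Per kilobase of the principal transcript, Perp had the highest level of the 9 genes on every plate, and the range over the 8 plates was 1394 to 6263 CPM per kb. Dsc3 (427 to 1068 CPM per kb) and Dsp (427 to 765 CPM per kb) followed, and these neighbours were not separated, since Dsc3 was above Dsp on 6 of 8 plates. Dsg1a was next, at 116 to 463 CPM per kb, and was below Dsp and above Pkp1 on 8 of 8 plates. Pkp1 (25.5 to 137 CPM per kb), Jup (21.9 to 294 CPM per kb), Dsg3 (37.7 to 117 CPM per kb) and Dsc1 (14.5 to 110 CPM per kb) overlapped, with each neighbour in that order above the next on 3 to 5 of 8 plates. Dsc2 was the lowest, at 0.628 to 26.3 CPM per kb, and lay below Dsc1 on 8 of 8 plates. The spread across plates was as unequal as the levels: the highest plate exceeded the lowest by 1.79-fold for Dsp, 2.50-fold for Dsc3, 7.57-fold for Dsc1, 13.4-fold for Jup and 41.9-fold for Dsc2.

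Of the desmocollins, Dsc2 passed the test against unwounded skin at 1w and at 9w. Its level was 2.91 and 6.42 CPM on the 0w plates, 122 and 87.0 CPM at 1w, 22.3 and 49.1 CPM at 8w, and 60.96 and 83.4 CPM at 9w. Both plates of each later time point were above both 0w plates, and both 1w plates and both 9w plates were above both 8w plates. Mean levels were 4.66 ± 2.48 CPM at 0w (SD, n = 2 plates), 104 ± 24.7 at 1w, 35.7 ± 19.0 at 8w and 72.2 ± 15.8 at 9w. The increase from 0w passed the test at 1w (log2 fold change 4.48, SE 0.67, adjusted p = 0.0217, edgeR quasi-likelihood) and at 9w (3.95, SE 0.65, adjusted p = 0.0461). At 8w the log2 fold change was 2.94 (SE 0.62), and the adjusted p was 0.396. From 8w to 9w, across the second wound, it was 1.01 (SE 0.58, adjusted p = 0.705, edgeR) and did not pass. The summed level of 8 wound-activated keratinocyte markers, such as Krt6a and Krt16, moved with it, at 469 and 1419 CPM at 0w, 11936 and 24780 at 1w, 1515 and 3197 at 8w, and 7673 and 7810 at 9w, and its part in the Dsc2 change was not tested. The 0w level rested on 6 positive cells of 179. A single cell held 98.2% of the Dsc2 counts on replicate 1 and 73.9% on replicate 2, and without the highest cell of each plate the levels were 0.0532 and 1.73 CPM at 0w, 105 and 72.9 at 1w, 12.8 and 12.6 at 8w, and 41.6 and 38.6 at 9w. The 1w call was lost when any 1 plate of 0w or 1w was left out (adjusted p 0.0628 to 0.146), and the 9w call when any 1 plate of 0w, 1w or 9w was (0.0752 to 0.260). The 9w call was also lost with equal scaling of each cell (adjusted p = 0.0607) and without the deepest cell of each plate (adjusted p = 0.0573), both in edgeR.

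Dsc1, the desmocollin of the upper layers, was at 77.3 and 54.9 CPM at 0w, 392 and 416 at 1w, 129.7 and 55.9 at 8w, and 268 and 169 at 9w. The 1w and 9w plates were thus above every 0w and 8w plate, and the 0w and 8w plates overlapped. The fitted log2 fold change at 1w against 0w was 2.61 (SE 0.55, adjusted p = 0.0747 with edgeR), and from 1w to 8w it was -2.12 (SE 0.54, adjusted p = 0.178). At 9w against 0w it was 1.72 (SE 0.53, adjusted p = 0.227). None of these passed the test, but the first and second passed with DESeq2 (adjusted p = 0.000353 and 0.00733) and in edgeR with the replicate number as a block (adjusted p = 0.0185 and 0.0496). Dsc3, the desmocollin of the basal layer, was far steadier. It stood at 1971 and 1333 CPM at 0w, 3335 and 2735 at 1w, 2386 and 2037 at 8w, and 2145 and 1838 at 9w, so that the 1w plates were above all others. Its log2 fold change at 1w was 0.88 (SE 0.41, adjusted p = 0.464, edgeR).

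**Figure D1:**
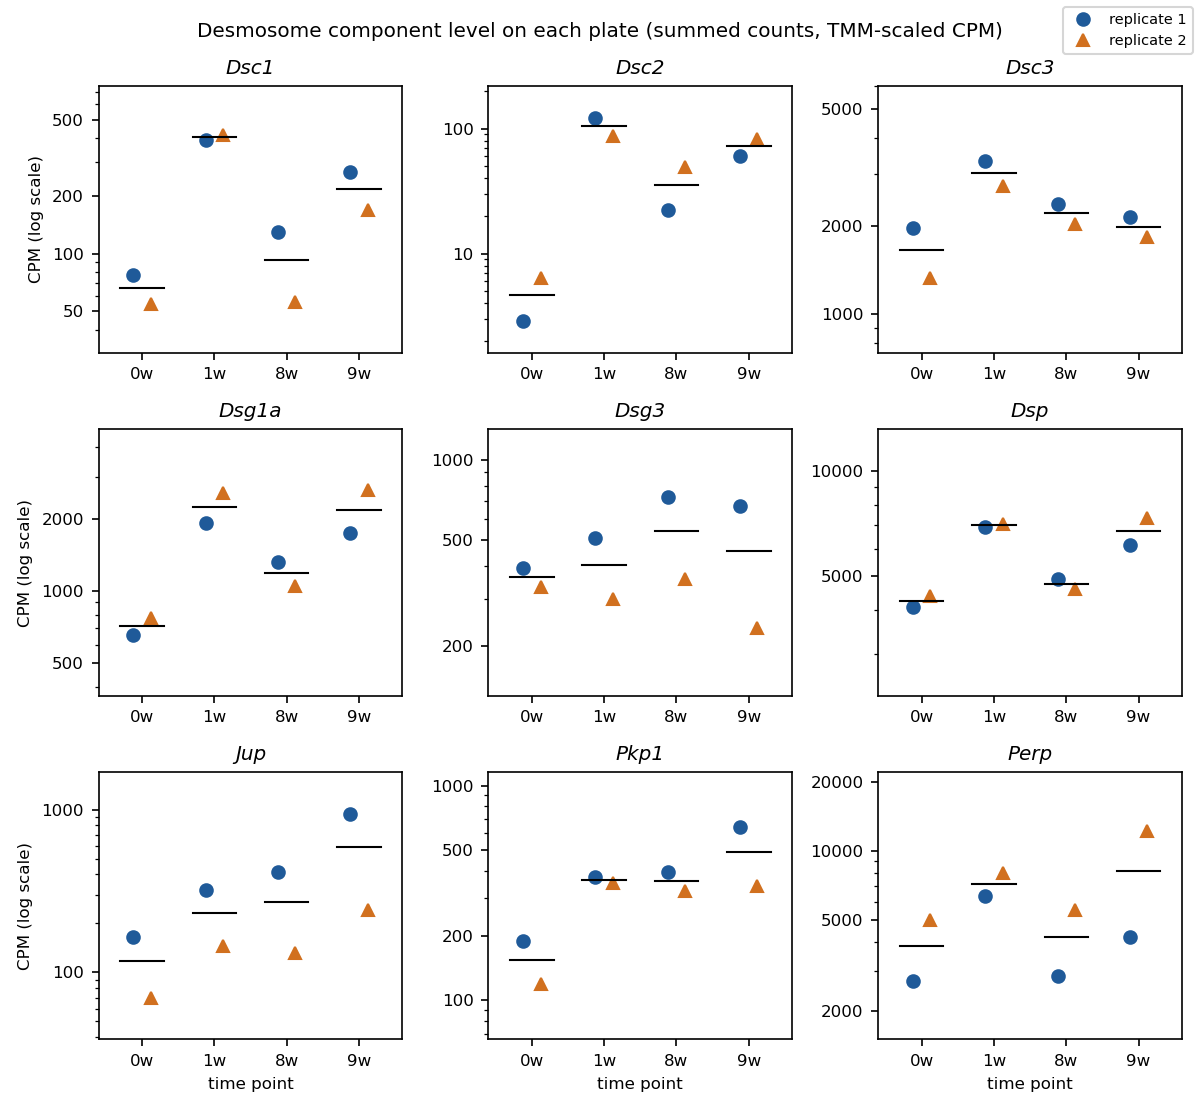
Level of each desmosome component on each plate, in CPM of the summed plate on a log axis whose range differs between panels; circles are replicate 1, triangles replicate 2 and bars the mean of 2 plates. Dsc2 spans 2.91 to 122 CPM and Dsp 4094 to 7336 CPM, and Jup is higher on replicate 1 than on replicate 2 at each of the 4 time points.

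Because the gene length cancels in a change, the balance between paralogs was followed as the log2 ratio of their summed counts on each plate. Dsc1 amounted to 3.92% and 4.12% of the Dsc3 counts at 0w, 11.8% and 15.2% at 1w, 5.44% and 2.74% at 8w, and 12.5% and 9.18% at 9w. The mean log2 ratio of Dsc1 to Dsc3 was therefore -4.64 ± 0.05 (SD, n = 2 plates) at 0w and -2.90 ± 0.26 at 1w, which is a 3.33-fold difference, and it was -4.69 ± 0.70 at 8w and -3.22 ± 0.31 at 9w. Dsc2 amounted to 0.148% and 0.482% of Dsc3 at 0w, 3.66% and 3.18% at 1w, 0.935% and 2.41% at 8w, and 2.84% and 4.53% at 9w. The Dsc2 to Dsc3 ratio was 12.7-fold higher at 1w and 13.4-fold higher at 9w than at 0w, but on the log2 scale these differences were 2.82 and 2.89 without replicate 1 of 0w and 4.52 and 4.59 without replicate 2 of 0w. Its 8w plates lay between those of 0w and the rest. Dsc3 therefore remained the most counted desmocollin on every plate, and its excess over Dsc1 was smallest at 6.58-fold, on replicate 2 of 1w. Dsg1a outnumbered Dsg3 on every plate, with log2 ratios of 0.75 and 1.21 at 0w, 1.92 and 3.10 at 1w, 0.87 and 1.56 at 8w, and 1.37 and 3.49 at 9w. The plates of 1w and 9w were above those of 0w in each of the 3 ratios. The smallest two-sided p of an exact permutation test of 2 plates against 2 is 0.333, which was the value for each of these 6 differences.

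**Figure D2:**
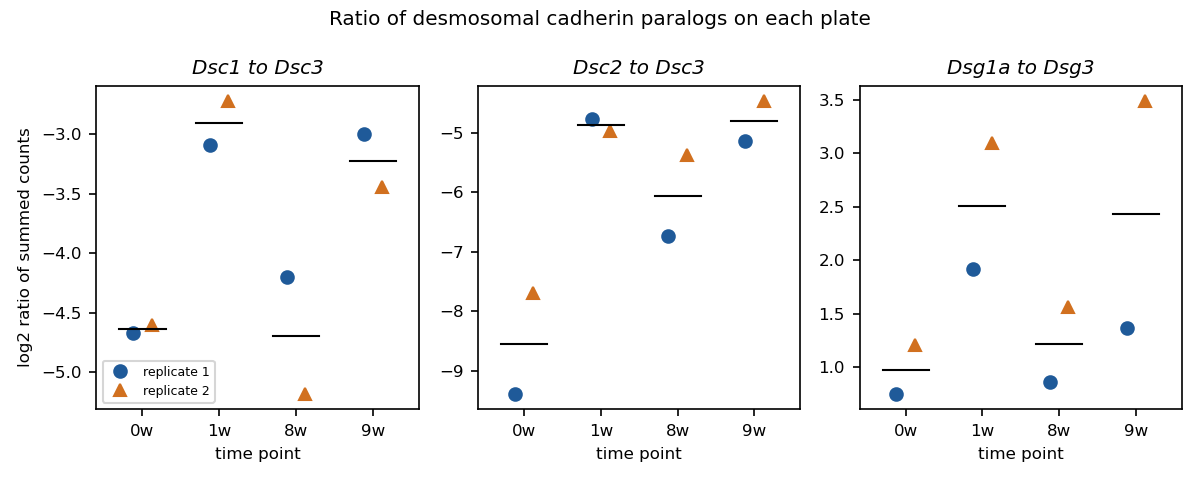
Log2 ratio of the summed counts of paralogous desmosomal cadherins on each plate; circles are replicate 1, triangles replicate 2 and bars the mean of 2 plates. The Dsc1 to Dsc3 ratio lies between -5.19 and -4.20 on the 0w and 8w plates and between -3.44 and -2.72 on the 1w and 9w plates.

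Of the 2 desmogleins among the 9 genes, Dsg1a differed more between time points. It was at 659.6 and 772 CPM at 0w, 1918 and 2559.8 at 1w, 1320.2 and 1057 at 8w, and 1742 and 2634 at 9w, without overlap between 0w and any later time point. Its log2 fold changes relative to 0w were 1.65 (SE 0.43, adjusted p = 0.152, edgeR) at 1w, 0.73 (SE 0.43, adjusted p = 0.822) at 8w and 1.61 (SE 0.43, adjusted p = 0.184) at 9w. These did not pass the test, whereas DESeq2 called the 1w and 9w differences (adjusted p = 0.0241 and 0.0365). Dsg3, by contrast, was at 393 and 334 CPM at 0w, 508 and 299.5 at 1w, 724 and 359 at 8w, and 674 and 234 at 9w, with overlap in every comparison. Replicate 1 had more Dsg3 than replicate 2 at all 4 time points. The reads of Dsg1a can be divided with its close copies Dsg1b and Dsg1c by the quantification, which makes the split between them uncertain. Dsg1b, which is not among the 9 genes, was at 269.7 and 197 CPM at 0w and at 1014 and 613 at 1w, with a difference in the same direction as that of Dsg1a (log2 fold change of Dsg1b 1.80, SE 0.59, adjusted p = 0.242, edgeR). It was at 609.9 and 296 CPM at 8w and at 724 and 277 at 9w. At 9w Dsg1b was thus lower on replicate 2, where Dsg1a was higher.

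Among the plaque genes, Dsp and Pkp1 were also without overlap between 0w and each later time point. Dsp was at 4094 and 4400.2 CPM at 0w, 6947 and 7089 at 1w, 4931 and 4603 at 8w, and 6168 and 7336 at 9w. The log2 fold changes of Dsp against 0w were small, at 0.72 (SE 0.38, adjusted p = 0.522, edgeR) at 1w, 0.17 (SE 0.38, adjusted p = 0.966) at 8w and 0.67 (SE 0.38, adjusted p = 0.514) at 9w. Over the 14 alternative fits the 1w value of Dsp ran from 0.012 to 0.83. Pkp1 was at 188 and 119 CPM at 0w, 377 and 351 at 1w, 397 and 321 at 8w, and 639.6 and 339 at 9w. Between 1w and 8w Pkp1 differed by -0.017 on the log2 scale (SE 0.47, adjusted p = 0.996), and its plates at these time points overlapped. Its log2 fold change against 0w was 1.24, 1.23 and 1.67 at 1w, 8w and 9w, with adjusted p of 0.336, 0.737 and 0.196 in edgeR, and DESeq2 called the last (adjusted p = 0.0470).

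Jup was at 166 and 70.1 CPM at 0w, 320.4 and 145 at 1w, 412 and 131 at 8w, and 941 and 244 at 9w. Its plates were separated at 9w against 0w (log2 fold change 2.33, SE 0.81, adjusted p = 0.278, edgeR) and overlapped at 1w and 8w. Within each replicate number, however, Jup was higher at 1w and at 8w than at 0w. With the replicate number as a block the 9w difference of Jup passed (2.16, SE 0.36, adjusted p = 0.0387, edgeR). Without the block it was 1.03 when replicate 1 of 9w was left out and 3.06 when replicate 1 of 0w was. Perp was at 2721 and 4976 CPM at 0w, 6387 and 8024 at 1w, 2858 and 5540 at 8w, and 4202 and 12226 at 9w, with log2 fold changes against 0w of 0.90 at 1w and 1.09 at 9w (adjusted p = 0.629 and 0.491, edgeR), the latter at 0.14 without replicate 2 of 9w. Jup and Perp were ordered oppositely between the plates of a time point. Jup was higher on replicate 1 at 4 of 4 time points, as were Dsc3, Dsg3 and Pkp1, and Perp was higher on replicate 2 at 4 of 4. Of all 13853 genes tested, 14.4% were higher on replicate 1 at all 4 time points and 12.8% were lower.

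Promoter sequence was at hand for 2 of the 9 genes, Dsp and Jup, and is shown because their products form the core of the plaque in every desmosome. The 250 bases before the transcription start are from RefSeq (GRCm38.p6), at chr13:38151044-38151293 on the plus strand for Dsp and chr11:100397791-100398040 on the minus strand for Jup, with matches to the GC box GGGCGG, on either strand, in capitals.
Dsp: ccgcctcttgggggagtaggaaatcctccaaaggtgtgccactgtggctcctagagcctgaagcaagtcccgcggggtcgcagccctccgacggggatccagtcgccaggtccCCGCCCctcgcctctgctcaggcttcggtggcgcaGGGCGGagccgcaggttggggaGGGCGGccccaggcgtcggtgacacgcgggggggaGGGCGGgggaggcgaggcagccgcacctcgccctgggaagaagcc
Jup: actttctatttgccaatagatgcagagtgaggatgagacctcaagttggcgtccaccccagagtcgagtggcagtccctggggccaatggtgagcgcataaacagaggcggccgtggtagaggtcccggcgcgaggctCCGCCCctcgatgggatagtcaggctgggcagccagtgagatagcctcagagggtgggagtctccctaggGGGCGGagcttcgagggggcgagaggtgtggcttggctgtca
The GC content was 72.4% for Dsp and 62.0% for Jup. Dsp held 4 matches to the GC box and Jup 2, and 32.7% of the 32851 mouse promoters of this length held at least 1. Neither held AACNGGTT, the core of grainyhead sites, on either strand, while 1.79% of promoters did. The AP-1 motif was searched as TGANTCA, and again neither promoter matched on either strand, against 6.75% of all. The TATA box was searched as TATAAA, with no match in the pair on either strand and one in 12.4% of promoters. Such matches describe the sequence and say nothing of which factors bind there.

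Over the whole set, each of the 9 genes had a fitted log2 fold change above 0 at 1w, 8w and 9w against 0w, where 48.2%, 53.4% and 52.0% of the 13853 tested genes did, but with equal scaling of each cell Dsg3 at 1w was at -0.13, and with a stricter cell filter Dsp was at -0.49 at 8w and -0.12 at 9w, and Perp at -0.35 at 8w. The stricter filter left only 37 of 88 and 9 of 91 cells on the 0w plates. Leaving out 1 plate also turned the sign of Dsg3 in each of these comparisons, of Dsc1 and Perp at 8w and of Dsc3 at 9w. These 3 comparisons share the 0w plates and are not independent of each other. A gene was called where its adjusted p was below 0.05 and its fold change above 2. At 1w this held for Dsc2 alone of the 9 genes, against 0.527% of the genes tested, and 4 of the 9 had an unadjusted p below 0.05, as did 11.5% of all genes. With the replicate block 2 of the 9 were called, Dsc2 and Dsc1, beside 1.70% of all genes, and with DESeq2 3 of the 9, the same pair and Dsg1a, beside 5.32%. The median log2 fold change of the 9 genes was 0.98, beside -0.04 for all genes, and 7 of the 9 had both 1w plates above both 0w plates, as 23.0% of all genes did. At 8w none of the 9 genes and 0 genes in all were called (0% called), although at an unadjusted p below 0.05 there were 2 of the 9 and 6.48% of all genes, and DESeq2 called 1 of the 9, Dsc2, and 1.24% of all genes. Here 5 of the 9, against 17.8% of all genes, had both 8w plates above both 0w plates. At 9w Dsc2 was again called, against 0.267% of the genes tested, and 5 of the 9 had an unadjusted p below 0.05, as did 12.6% of all genes. With the replicate block 2 of the 9 were called, Dsc2 and Jup, beside 0.693% of all genes, and with DESeq2 3 of the 9, Dsc2, Dsg1a and Pkp1, beside 5.17%. The median log2 fold change of the 9 genes was then 1.61 beside 0.05, and 6 of the 9 were without overlap and higher, against 21.5%.

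From 1w to 8w the fitted log2 fold change was below 0 for 7 of the 9 genes, where 54.0% of all genes were above 0. None of the 9 genes was called with edgeR, where 0.115% of the genes tested were, Dsc1 was called with the replicate block (0.794% of all genes) and with DESeq2 (4.21%), and 2 of the 9 (Dsc1 and Dsc2) had an unadjusted p below 0.05, as did 11.1% of all genes. Both 8w plates were below both 1w plates for 6 of the 9 genes, namely the 3 desmocollins, Dsg1a, Dsp and Perp, against 20.3% of all genes. From 8w to 9w, none of the 9 was called with edgeR or DESeq2 (0.00722% and 2.11% of genes tested were) and 1 of the 9, Dsc1, had an unadjusted p below 0.05, as did 7.94% of all genes. Both 9w plates were above both 8w plates for 4 of the 9, Dsc1, Dsc2, Dsg1a and Dsp, against 16.8% of all genes. The log2 fold change in this second healing was 1.23 (SE 0.52) for Dsc1, 1.01 (SE 0.58) for Dsc2, 0.88 (SE 0.43) for Dsg1a and 0.50 (SE 0.38) for Dsp, with adjusted p of 0.600 to 0.787 in edgeR.

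The 2 healing responses were then set against each other, as the change from 8w to 9w minus the change from 0w to 1w. It was -3.47 (SE 0.84, adjusted p = 0.691, edgeR) for Dsc2, where the first wound started from the 0w level and the second from the 8w level, and it passed with DESeq2 (adjusted p = 0.0252). For Dsc1 it was -1.38 (SE 0.73) and for Dsc3 -1.03 (SE 0.58), both with an adjusted p of 0.964. None of the 9 genes and 0 of all genes passed with edgeR (0% called), 1 of the 9 had an unadjusted p below 0.05, as did 5.34% of all genes, and DESeq2 called 1 of the 9 and 0.556% of all genes. Between the matched weeks themselves, 9w against 1w, none of the 9 genes was called with either tool, 0 had an unadjusted p below 0.05 (6.01% of all genes did) and 0% of all genes were called with edgeR and 0.314% with DESeq2. All 3 desmocollins had both 9w plates below both 1w plates, as did 17.4% of all genes, with log2 fold changes of -0.89 (SE 0.52) for Dsc1, -0.53 (SE 0.58) for Dsc2 and -0.61 (SE 0.41) for Dsc3 and adjusted p of 0.789 to 0.874.

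**Figure D3:**
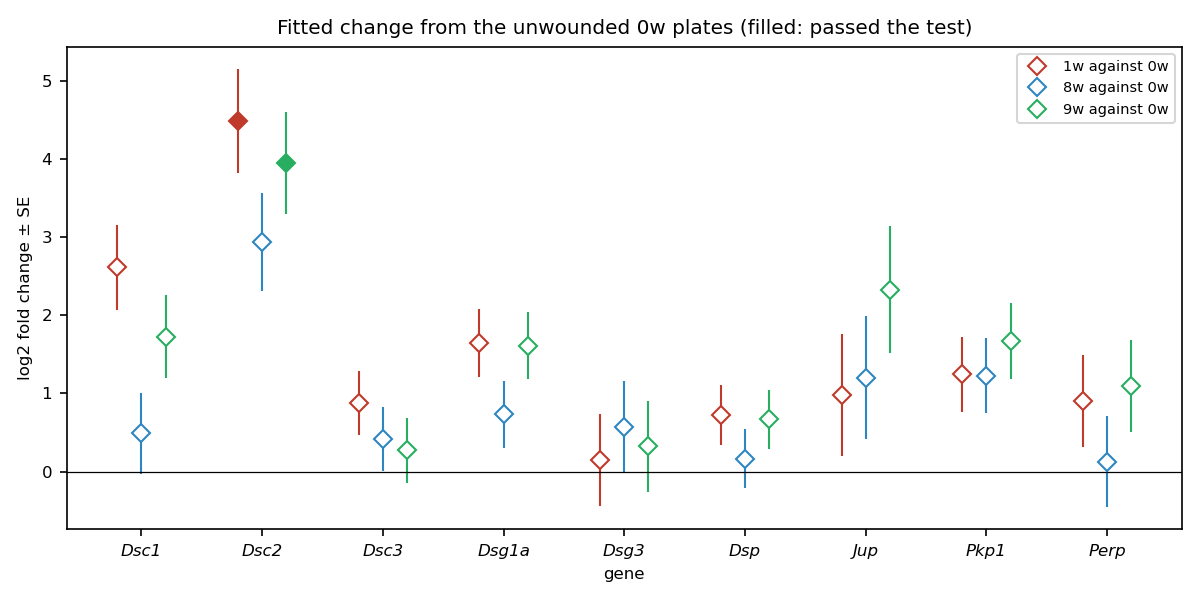
Fitted log2 fold change of each component at 1w, 8w and 9w against 0w; bars are standard errors from the edgeR fit over 8 plates, and a filled diamond is a change that passed the test. The 2 filled diamonds are Dsc2 at 1w (4.48) and at 9w (3.95).

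The components differed in the share of cells in which they were seen. Dsc3, Dsp and Perp had at least 1 count in 97.7% to 100% of the cells of every plate, and Dsg3 in 74.7% to 88.4%. Jup was seen in 92.0% and 72.5% of cells at 0w, 98.9% and 97.5% at 1w, 89.4% and 77.01% at 8w, and 96.5% and 94.5% at 9w, and Pkp1 in 94.3% and 73.6% at 0w, 98.9% and 97.5% at 1w, 97.6% and 82.8% at 8w, and 97.7% and 94.5% at 9w. For both the 0w plates were below those of 1w and 9w and overlapped with those of 8w. Dsc1, Dsc2 and Dsg1a were each missing from most cells at 0w, and their 0w plates too were below every plate of 1w and 9w. Dsg1a was seen in 43.2% and 42.9% of cells at 0w, 95.5% and 96.2% at 1w, 69.4% and 64.4% at 8w, and 86.0% and 93.4% at 9w, so that the 8w plates stayed between 0w and the wounded states. The exact 95% binomial intervals, which cover counting error only, were 32.7% to 54.2% on replicate 1 of 0w and 88.9% to 98.8% on replicate 1 of 1w. Dsc1 was seen in 25.0% and 20.9% of cells at 0w, 70.8% and 73.4% at 1w, 30.6% and 24.1% at 8w, and 62.8% and 64.8% at 9w. Its 0w and 8w plates overlapped here, but not at equal depth. Dsc2 was seen in 2.27% and 4.40% of cells at 0w (2 of 88 and 4 of 91), 32.6% and 26.6% at 1w, 14.1% and 14.9% at 8w, and 25.6% and 17.6% at 9w.

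At equal depth the 0w shares stayed below those of 1w. After each cell was thinned to 50000 counts, with 50 to 77 cells a plate left, Dsg1a was seen in 40.3% on both 0w plates and in 94.5% and 95.9% at 1w, Dsc1 in 22.1% and 22.4% against 67.1% and 71.6%, and Dsc2 in 2.60% and 4.48% against 35.6% and 24.3%. The exact permutation p was 0.333 for each of these comparisons, the smallest that 2 plates against 2 allow. Thinned Dsc1 shares at 8w were 34.8% and 26.0%, above both 0w plates, whereas without thinning these plates overlapped. Thinned Dsg1a shares at 9w were 88.0% and 94.7% and overlapped with those of 1w, whereas without thinning they lay below them. Within the positive cells, the median level of Dsc1 was 204 to 209 CPM at 0w and 213 to 274 CPM at 1w, and that of Dsg1a 1049 to 1134 CPM at 0w and 1293 to 2288 CPM at 1w. For Dsc1 it was 338 and 125 CPM at 8w and 348 and 153 CPM at 9w, with overlap with 0w. For Dsg1a it was 1052 and 973 CPM at 8w and 1697 and 2656 CPM at 9w. The desmoglein Dsg2, known from simple epithelia and hair follicle and not among the 9 genes, ran the other way: it was seen in 60.2% and 44.0% of cells at 0w and in 19.1% and 22.8% at 1w. Its level was 97.1 and 72.6 CPM at 0w and 26.0 and 12.2 CPM at 1w (log2 fold change -2.15, SE 0.58, adjusted p = 0.169, edgeR).

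**Figure D4:**
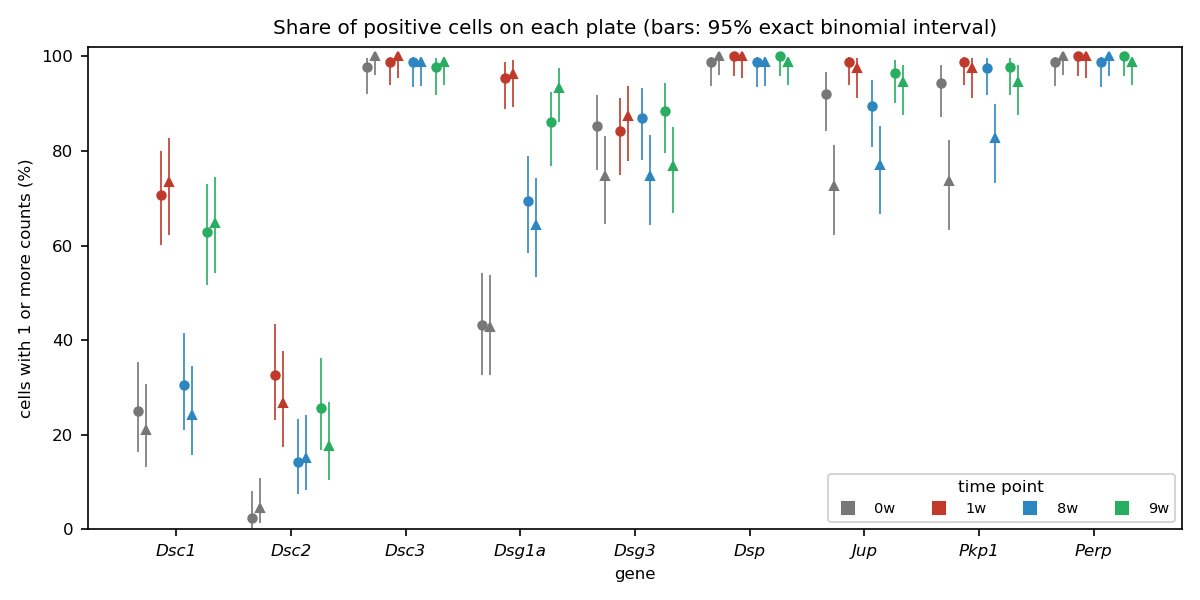
Share of cells with 1 or more counts of each component on each plate, in percent; circles are replicate 1, triangles replicate 2, colours the time point and bars the 95% exact binomial interval. Without thinning to equal depth, Dsc1, Dsc2 and Dsg1a are highest on the 1w plates, and the 0w and 8w plates overlap for Dsc1, whereas Dsc3, Dsp and Perp are at 97.7% or more throughout.

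In single cells the desmocollins were not exclusive. Each of the 119 Dsc2-positive cells was also positive for Dsc3, and so were 95.5% to 100% of the Dsc1-positive cells of each plate. Dsc3 was itself seen in 97.7% to 100% of all cells of each plate, so this overlap follows from its detection. Dsc1 was seen in a smaller share of Dsc2-positive than of Dsc2-negative cells on 6 of 8 plates, and on replicate 2 of 0w and of 9w the order was the opposite. The 0w plates held only 2 and 4 Dsc2-positive cells, and on replicate 2 of 8w the shares were 23.1% against 24.3%. At 1w the shares were 62.1% and 57.1% against 75.0% and 79.3%, and at 9w the cells were 11 of 22 and 11 of 16 against 43 of 64 and 48 of 75. No cell was without all 9 components, and the median number seen per cell was 6 on both 0w plates, 8 at 1w, 7 at 8w and 8 at 9w. Cells with all 9 numbered 0 and 3 at 0w, 15 and 12 at 1w, 3 and 2 at 8w, and 10 and 9 at 9w. Neither the median nor this number was taken at equal depth, and the plate medians ran from 64980 to 256588 counts per cell.

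To place these levels among cell types, the cells were clustered with the desmosomal genes left out, and 12 clusters were found, of which 7 could be named from markers. The levels by cluster are descriptions, without a test, and are in CPM of the summed cells without further scaling. Cells were pooled over time points, so that an order between clusters also depends on the plates they came from. In the 104 suprabasal-like cells, led by Krt2 and Krt10, Dsc1 was at 458 CPM and Dsg1a at 3224 CPM, and 92.3% and 100% of cells were positive. This cluster held 10 of 179 cells at 0w, 45 of 168 at 1w, 6 of 172 at 8w and 43 of 177 at 9w. Its part in the plate differences of Dsc1 and Dsg1a was not tested. In the upper follicle duct and infundibulum-like cluster led by Defb6 (113 cells) and in an unnamed cluster led by Rptn and Klk10 (24 cells), Dsc1 was at 272 and 561 CPM, and Dsg1a at 2447 and 3566 CPM. Dsp was at 8569 and 10557 CPM there. On both 8w plates, however, an unnamed cluster led by Mettl7a3 and Mt4 (32 cells) was above the duct cluster in Dsg1a, at 2478 and 1847 against 2021 and 1779 CPM, and in Dsp, at 8351 and 8117 against 7499 and 6638 CPM. In the bulge-like clusters Dsg1a was at 999 CPM (66 cells) and 36.5 CPM (26 cells), and Dsc1 at 11.4 CPM in the first, whereas Dsc3 was at 2806 and 2091 CPM and Dsg3 at 700 and 892 CPM. In the 26-cell cluster 0 cells had a count of Dsc1 or Dsc2, which for counting error alone allows up to 11.5% of cells with a count and sets no limit on cells that express the genes.

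Dsc2 had another distribution. In the 64 wound-activated-like cells, led by Krt6b and S100a8, it was at 233 CPM with 62.5% of cells positive, and this cluster was the highest for Dsc2 on each of the 4 plates that gave it at least 5 cells. On replicate 2 of 9w a single cell of the cluster held 54.6% of the plate's Dsc2 counts, and the rank there without that cell was not tested. Over the 64 cells Dsc1 was at 97.2 CPM and Dsg1a at 619 CPM. In the suprabasal-like cells Dsc2 was at 9.63 CPM with 7.69% positive. The wound-activated-like cluster held 0 of 179 cells at 0w, 41 of 168 at 1w, 1 of 172 at 8w and 22 of 177 at 9w. It accounted for 54.0% of the Dsc2-positive cells and 67.6% of the Dsc2 counts at 1w, and for 34.2% and 64.9% at 9w (64.5% and 46.1% of the counts at 1w and 9w without the highest cell of each time point). Of the 25 Dsc2-positive cells at 8w, 0 were in this cluster, 7 were in the Mettl7a3-led cluster, 5 in the cycling-like cluster and 4 in the Defb6-led duct cluster, which held 68.5% of the counts. A single cell held 53.4% of the 8w counts, and without it the duct cluster held 32.3%.

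The sebaceous-like cells, led by Scd1, had little RNA of most desmosome components. Dsg1a was at 1.47 CPM with 3.45% of the 58 cells positive, Dsp at 933 CPM, Dsg3 at 24.5 CPM, Jup at 27.3 CPM and Pkp1 at 44.8 CPM. On the 4 plates that gave at least 5 of these cells they were the lowest cluster on each for Dsg1a, Dsg3, Dsp and Jup, and on 3 of 4 for Pkp1, Perp and Dsc3. These cells made up 37 of 179 at 0w, 16 of 172 at 8w, 1 of 168 at 1w and 4 of 177 at 9w, and their part in the plate differences was not tested. Jup was at 1335 CPM in a 46-cell cluster led by Fam83a and Klk8, of which 54.3% came from replicate 1 of 9w, and at 813 CPM in the 32-cell cluster led by Mettl7a3. Pkp1 was at 852 and 914 CPM in these clusters.

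**Figure D5:**
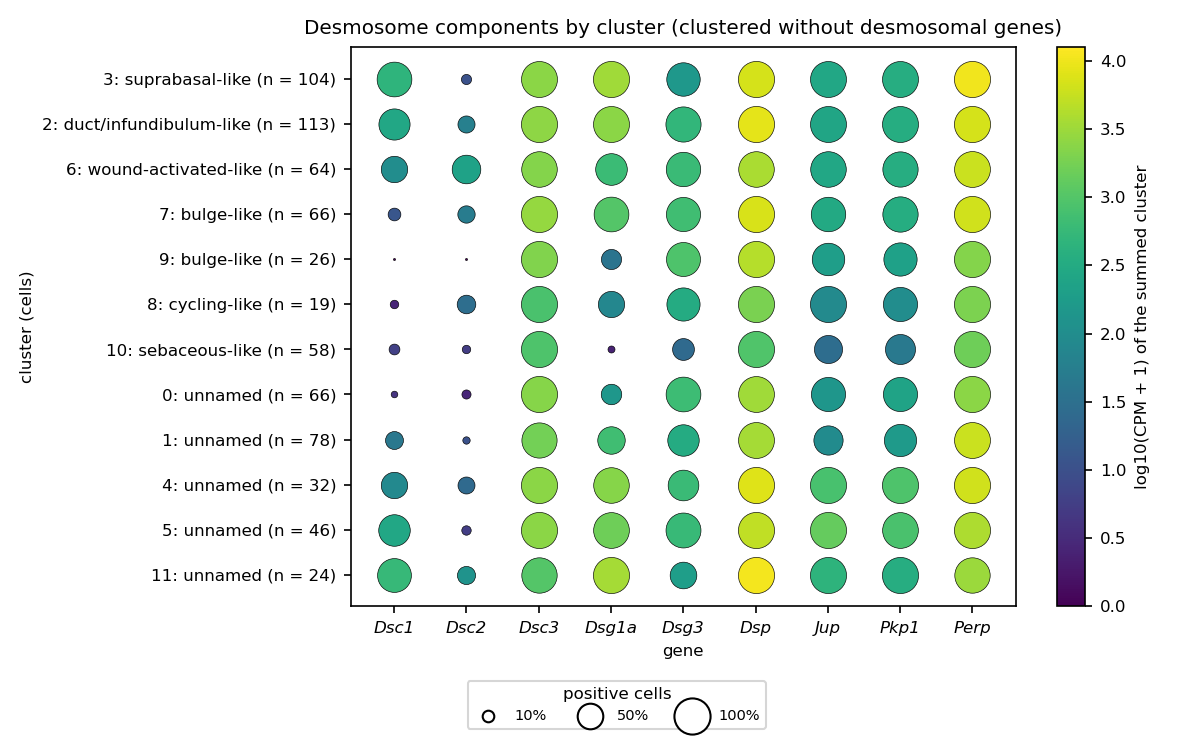
Desmosome components in 12 clusters of cells; the area of a circle is the percentage of positive cells and the colour is log10(CPM + 1) of the summed cluster. Dsc2 is highest in the wound-activated-like cluster (233 CPM), Dsc1 and Dsg1a in the suprabasal-like cluster, the duct/infundibulum-like cluster and the unnamed cluster 11, and the smallest circle of Dsg1a is that of the sebaceous-like cluster (3.45% positive).

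Within one cluster the time points could be set side by side where a plate gave at least 5 cells. In the Defb6-led duct cluster, Dsg1a was seen in 92.9% to 100% of cells on every plate. Its level there was 1357 and 2618 CPM at 0w and 2600.5 and 2863 CPM at 1w, so that these plates overlapped. At 8w it was 2021 and 1779 CPM, and at 9w 3152 and 2788 CPM, above both 0w plates. Dsc1 in the same cluster was at 176 and 129.8 CPM at 0w (7 and 11 cells), 551 and 511 at 1w (20 and 21 cells), 229 and 38.0 at 8w and 288 and 167 at 9w, with the 1w plates above the rest. Dsc2 in this cluster was at 0 and 25.8 CPM at 0w, 24.4 and 52.5 at 1w, 59.2 and 116 at 8w, and 152 and 6.47 at 9w. These rest on few cells, with 1 of 14 and 3 of 9 positive at 8w and most of the counts of replicate 2 in a single cell, so no order is read from them. In the Defb6-led duct cluster Dsp was at 8373 and 11703 CPM at 0w and 7436 and 7844 at 1w. Jup there was at 477 and 176 CPM at 0w and 172 and 88.7 at 1w. Dsg3 was also lower on both 1w plates, and Dsc3, Pkp1 and Perp overlapped. In the suprabasal-like cluster Dsp was at 9000 CPM on replicate 2 of 0w (6 cells) and 4952 and 5995 at 1w. In the larger bulge-like cluster Dsp was at 4129 CPM on replicate 2 of 0w and 8092 and 5160 at 1w. In the suprabasal-like cluster Dsg1a was at 3029 CPM on replicate 2 of 0w, 2545 and 2694 CPM at 1w, and 3755 and 3753 CPM at 9w. In the larger bulge-like cluster Dsg1a was at 134 CPM on replicate 2 of 0w (9 cells) and at 856 to 1343 CPM on the plates of 1w, 8w and 9w. The smaller bulge-like cluster did not show this difference, with Dsg1a at 26.1 CPM on replicate 1 of 0w and 31.6 and 100 CPM at 8w. No plate of 1w or 9w gave at least 5 cells of that smaller cluster, so bulge-like cells were split differently between the clusters at each time point. In the wound-activated-like cluster Dsc2 was at 185 and 246 CPM at 1w and 169 and 355 CPM at 9w. A single cell of this cluster held 54.6% of the Dsc2 counts of replicate 2 of 9w. Dsc1 in the same cluster was at 117 and 145 CPM at 1w (16 of 24 and 11 of 17 cells positive) and 36.2 and 38.9 CPM at 9w (1 of 11 and 6 of 11). Jup was at 1074 CPM on replicate 1 and 245 CPM on replicate 2 of 9w in the suprabasal-like cells.

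Across the cells of a plate, 4 pairs of components had the strongest correlations. The mean of the 8 within-plate correlations of log2(CPM + 1) was 0.59 for Dsg1a with Dsp, 0.56 for Dsc1 with Dsg1a, 0.54 for Jup with Pkp1 and 0.52 for Dsp with Perp. It was -0.09 for Dsc1 with Dsc2, -0.09 for Dsc1 with Dsg3 and 0.12 for Dsg1a with Dsg3. These are descriptions over the 79 to 91 cells of each plate, and the cells of a plate differ in library depth. Of 7661 genes seen in at least 20% of cells, those most like Dsc1 were Calm4, Elovl4 and Sdr16c6 (mean correlations 0.66, 0.66 and 0.64), and those most like Dsg1a were Calm4, Krt10 and Ly6g6c (0.62, 0.59 and 0.57). Jup was most like Lypd3, Sfn and Actb (0.54, 0.51 and 0.50), Pkp1 most like Fam25c, Lypd3 and Trim29 (0.45 each), and Dsp was near to Pof1b and Cst6 (0.50 and 0.46). Dsg3 was near to Tmsb4x and Krt6a (0.41 and 0.40), Dsc3 to Serpinb5, Cd109 and Cd9 (0.38, 0.38 and 0.37) and Perp to Serpinb5, Itm2b and Calm4 (0.47, 0.44 and 0.43). For Dsc2, which most cells lacked, the nearest genes were Ctsl, Krt6a and Rab31, with weak correlations of 0.31, 0.25 and 0.22.

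Of the keratins that desmosomes anchor, 9 were tested. Of these, 4 were called higher at 1w against 0w (Krt6a, Krt6b, Krt16 and Krt10), 3 at 9w against 0w (Krt6a, Krt6b and Krt16) and 0 lower in either, where 0.527% and 0.267% of all genes were called in either direction. Krt6a, a keratin of wounded epidermis, went from a mean of 50.3 CPM at 0w to 4514 at 1w (log2 fold change 6.49, SE 0.54, adjusted p = 0.00137, edgeR), and was at 344 CPM at 8w and 1165 CPM at 9w. Krt6b had 0 counts on both 0w plates and means of 3802 CPM at 1w, 0.141 at 8w and 196 at 9w. Krt16 was at 1.17, 2099, 39.1 and 656 CPM at 0w, 1w, 8w and 9w. Krt10, the suprabasal keratin, was at 1267 CPM at 0w and 22698 at 1w (log2 fold change 4.16, SE 0.66, adjusted p = 0.0276, edgeR). Its partner Krt1 was at 215 and 6583 CPM (adjusted p = 0.0666). Of the basal keratins, Krt14 was at 951 CPM at 0w and 4088 at 1w (log2 fold change 2.10, adjusted p = 0.0721), while Krt5 was at 332 and 254 CPM and Krt15, which also marks the bulge, at 646 and 276 CPM. Krt17 was at 659.9, 1166, 938 and 2596 CPM at the 4 time points. From 1w to 8w, Krt6a, Krt6b and Krt16 were called lower, and from 8w to 9w Krt6b was called higher, where 0.115% and 0.00722% of all genes were called. The median log2 fold change of the 9 keratins was 4.16 at 1w and 3.29 at 9w, beside 0.98 and 1.61 for the 9 desmosome components.

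Of the other desmosomal and cornified-envelope plaque genes, 9 of 10 passed the filter on low counts and 0 were called at 1w or 9w against 0w. At an unadjusted p below 0.05 there were 2 and 1 of these 9, beside 11.5% and 12.6% of all genes. Cdsn, the corneodesmosome protein, was at 14.5 CPM at 0w, 64.6 at 1w and 114 at 9w, and Evpl (envoplakin) at 18.2, 22.8 and 71.0 CPM. Ppl (periplakin) was at 113, 178 and 169 CPM, and Pkp4 at 15.3, 16.4 and 25.7 CPM. The median log2 fold change of this list was 0.36 at 1w and 1.10 at 9w. None of the 9 adherens junction genes was called at 1w or 9w (2 and 1 had an unadjusted p below 0.05, beside 11.5% and 12.6% of all genes), and Cdh1 (E-cadherin) was at 287 CPM at 0w and 299.5 at 1w. The highest of that list by log2 fold change at 1w were Nectin4, at 6.70 CPM at 0w and 20.6 at 1w, and Nectin1, at 15.04 and 42.4 CPM, while Afdn was at 752 and 817 CPM and Ctnna1 at 142 and 201 CPM.

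None of the 11 tight junction genes tested was called at 1w or 9w, and 1 and 3, each of them higher, had an unadjusted p below 0.05, beside 11.5% and 12.6% of all genes. Cldn4 was at 6.79 CPM at 0w, 7.71 at 1w and 38.7 at 9w (9w log2 fold change 2.51, SE 0.66, adjusted p = 0.179, edgeR), Ocln at 18.7, 40.9 and 21.7 CPM, F11r at 50.5, 56.6 and 117, and Cldn1 at 201, 297 and 327 CPM. Of 6 gap junction genes, 0 were called at 1w or 9w (3 and 3, each higher, at an unadjusted p below 0.05, beside 11.5% and 12.6% of all genes), and Gjb2 was called lower from 1w to 8w, where 0.115% of all genes were called. Gjb2 (connexin 26) was at 79.0 CPM at 0w, 733 at 1w, 21.0 at 8w and 196 at 9w, and Gjb6 at 23.5, 91.8, 39.2 and 18.0 CPM. Gja1 (connexin 43) was at 199 CPM at 0w and 435 at 9w, and Gjb5 at 5.55 and 28.2.

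None of 15 desmosome regulators was called at 1w or 9w against 0w. At an unadjusted p below 0.05 there were 5 higher and 1 lower at 1w and 3 higher and 2 lower at 9w, beside 11.5% and 12.6% of all genes in either direction. These include the epidermal transcription factors Zfp750, at 68.8 CPM at 0w and 234 at 1w (log2 fold change 1.77, SE 0.50, adjusted p = 0.177, edgeR), Ovol1, at 9.00, 27.2 and 43.8 CPM at 0w, 1w and 9w, and Grhl3, at 6.81, 18.1 and 29.6 CPM. The lowest by log2 fold change were Snai2, at 68.7 CPM at 0w and 37.5 at 1w, Egfr, at 244, 144 and 112 CPM at 0w, 1w and 9w, and Erbin, at 443 and 198 CPM at 0w and 9w. The median log2 fold change of this list was 0.90 at 1w and 0.84 at 9w.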

How the data were processed

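Full-length single-cell RNA-seq (Smart-seq2, single-end reads) of sorted tdTomato-positive tail-skin cells was analysed from the deposited estimated counts (genes by cells), which the authors made with Salmon 0.13.1 against GRCm38 (mm10); Seurat and R 4.0.3 are also named in the submitters' processing notes. How transcripts were summed to genes is not given in the sources used here. Of the values, 96.6% were whole numbers. All 696 cells met the study's filter (at least 1000 genes, at most 50% mitochondrial counts). The expected counts were summed over the cells of each of 8 plates (2 per time point), rounded, and tested with edgeR 4.0.16 (quasi-likelihood, TMM scaling, genes kept by filterByExpr, 1 mean per time point, all 8 plates in the fit) in R 4.3.3. Of 15652 genes, 13853 were tested, among them all 9 desmosome components, in 7 comparisons. Calls needed a fold change above 2 and a p below 0.05 after Benjamini-Hochberg adjustment over all tested genes. Plates of a time point are separate samples in the labels, and the study's methods describe 2 independent experiments of 4 biological replicates each without tying plates to them, so p-values measure the spread between plates, which may in part be technical. The sample titles also give both plates of 0w the label RepC, both of 8w RepB and both of 9w RepF. What this label marks is not stated there. Plates with the same replicate number deviated together from their time point means (correlations across genes of 0.168 to 0.257 over the 6 pairs of time points), so values with the replicate number as a block are given where they change a call. No UMIs were used, so reads are not independent molecules.

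The members and gene lists were chosen with earlier results of these data known. All 9 members are named throughout. From the other lists, the genes named were the 2 highest and 2 lowest by log2 fold change at 1w and at 9w among genes with an average log2 CPM of at least 4, plus all keratin partners. The 3 genes most like each member were taken by the mean of 8 within-plate Pearson correlations. A few of the genes that these rules name are not reported here. Cells were clustered with scanpy 1.11.5 (2000 variable genes, 30 components, 15 neighbours, Leiden resolution 1) without desmosomal genes, and named from fixed marker lists where at least 3 markers were 2-fold higher than in the other cells and detected in 25% of the cluster, at most 50% of its cells came from 1 plate, and its 10 leading genes held at least 1 marker of that list alone (this last condition was added after seeing the data). No doublet caller was run. Marker genes missing from the table, such as Cdh5, Trac and Mlana, were not analysed here. Paralog ratios used a pseudocount of 0.5 counts. Lengths are those of principal transcripts in GENCODE M21. The test was checked on simulated data with known changes. The simulated plates were drawn independently, so the check did not cover counts held mostly by a single cell or plates that deviate together. The alternatives were DESeq2 1.42.0, no filter on low counts, a replicate block, equal scaling of each cell, a stricter cell filter (at least 2000 genes, at most 20% mitochondrial counts), a pseudocount of 5, a positive cut of 5 counts, thinning to 50000 counts, a Leiden resolution of 2, and leaving out each plate. Leaving out the deepest cell, or the cell highest for a gene, was added after seeing the data.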

Additional observations from a re-analysis of the deposited data

How the results depend on the processing

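The rise of Dsc2 was positive under each of the 14 alternative fits, with log2 fold changes of 3.99 to 9.83 at 1w and 3.45 to 9.50 at 9w against 0w. The upper end is that of the stricter cell filter, which left 1 and 0 counts of Dsc2 at 0w and is no bound. Among the 9 components, the numbers called at 1w and at 9w (1 and 1 with edgeR) were 3 and 3 with DESeq2, 0 to 1 and 0 to 1 without single plates, and at 9w 0 with equal scaling of each cell (adjusted p = 0.0607) and 0 without the deepest cell of each plate (0.0573). DESeq2 called 1 at 8w against 0w, 1 from 1w to 8w and 1 for the difference of both healings.

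The number of all genes called (73, 0, 37, 16, 1, 0 and 0 for 1w, 8w and 9w against 0w, 8w against 1w, 9w against 8w, 9w against 1w, then the contrast of both healings) was 723, 155, 688, 561, 281, 41 and 77 with DESeq2. With the stricter filter it was 24 at 1w, 9 at 9w and 5 from 8w to 9w, with equal scaling 4 at 8w and 1 in the difference, and with no filter on low counts 5 from 8w to 9w. Without single plates it was 8 to 93, 0 to 2, 1 to 36, 0 to 23, 0 to 7 and, in the difference, 0 to 2. The cause was not tested.

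The labels do not say what a shared replicate number marks. With the replicate number as a block, 2 components were called at 1w (Dsc2, Dsc1), 2 at 9w (Dsc2, Jup) and 1 from 1w to 8w (Dsc1), and 236, 3, 96, 110, 8 and 3 genes in all at 1w, 8w and 9w against 0w, 8w against 1w, 9w against 8w and the difference. It changed no other call of a component. The block turned the difference between the healings of Perp to -0.11.

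No called change reversed. Signs turned for changes that had not been called. With equal scaling these were Dsg3 at 1w (-0.13), Dsc3 from 8w to 9w (0.037), Jup in the difference (-0.31), the Dsc1 to Dsc3 ratio at 8w against 0w (0.22) and the Dsc2 to Dsc3 ratio at 9w against 1w (-0.077). With the stricter filter they were Dsp at 8w (-0.49), Perp at 8w (-0.35), Dsp at 9w (-0.12), Pkp1 from 1w to 8w (0.058), Dsg1a and Dsg3 at 9w against 1w (0.11 and -0.044), Dsp and Jup in the difference (0.36 and -0.042), and the Dsg1a to Dsg3 ratio at 8w against 0w (-0.74) and 9w against 1w (0.39). Without the deepest cell, Dsc3 from 8w to 9w was 0.0065 and Dsg1a at 9w against 1w 0.025. The stricter filter left 9 of 91 cells on replicate 2 of 0w. It also moved the median of all genes to 0.13 at 8w against 0w and 0.20 at 8w against 1w.

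Ranges without single plates crossed 0 for Dsg3 at 1w (-0.30 to 0.48), 8w (-0.026 to 0.94), 9w (-0.66 to 0.91), 8w against 1w (-0.18 to 0.82), 9w against 8w (-1.19 to 0.38), 9w against 1w (-0.81 to 0.76) and in the difference (-1.34 to 0.23). They did so for Dsc1 at 8w (-0.24 to 0.92), Perp at 8w (-0.50 to 0.60), 9w against 1w (-0.75 to 0.74) and in the difference (-0.85 to 0.68), Dsc3 at 9w (-0.0019 to 0.55) and 9w against 8w (-0.26 to 0.011), and Jup at 8w against 1w (-0.83 to 0.86), 9w against 8w (-0.14 to 2.19) and in the difference (-1.12 to 1.20). For Pkp1 these were 8w against 1w (-0.18 to 0.073), 9w against 8w (-0.072 to 0.89) and 9w against 1w (-0.12 to 0.84), and at 9w against 1w also Dsg1a (-0.34 to 0.21) and Dsp (-0.16 to 0.042). The ratio of Dsc1 to Dsc3 at 8w against 0w ran from -0.55 to 0.44, that of Dsc2 to Dsc3 at 9w against 1w from -0.26 to 0.41, and that of Dsg1a to Dsg3 from -0.11 to 0.58 at 8w against 0w and from -1.14 to 0.98 at 9w against 1w. With 2 plates a time point, fitted log2 fold changes as large as 2.61 (Dsc1 at 1w) and 2.94 (Dsc2 at 8w) did not pass the test, and shares of cells moved by more than the plate SD in 36 of 144 alternatives, as did levels in named clusters in 23 of 108 (Leiden resolution 2 or the mean over cells).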
